A study of Mus musculus with 56 samples.

Results

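The livers of 8 mice given ponatinib at 10 mg/kg were compared with the livers of 8 control mice, which makes 16 of the 56 mice sequenced in the series. The members were all mice that the sample labels place in these 2 groups, and no mouse was chosen by a measured value. The comparison asks which genes, pathways and cell type signals of the liver differ after long treatment with the high dose of ponatinib, beyond genes of coagulation and atherosclerosis. All animals were female APOE*3Leiden.CETP mice, 9 to 14 weeks of age, which carry human lipoprotein transgenes in every group and serve as a model of dyslipidemia and atherosclerosis. They ate a Western-type diet with 15% cacao butter and 0.15% cholesterol, and treatment followed a run-in of 3 weeks and lasted 16 weeks. Ponatinib was given by gavage once a day in 5% carboxymethyl cellulose, control mice received this vehicle, and mice of both groups received a further gavage of vehicle each day. Ponatinib 3 mg/kg and imatinib 150 mg/kg (gavaged on 2 occasions a day), with 8 mice each, are used below only where they show how the high dose of ponatinib differs from them. Mice are numbered 1 to 8 within a group by the order of their records, so a number names a mouse and pairs nothing across groups.

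Ponatinib is an inhibitor of the BCR-ABL1 tyrosine kinase that is used in chronic myeloid leukemia, and it also blocks receptor tyrosine kinases of the VEGF, FGF and PDGF families. Most RNA of the liver comes from hepatocytes, which make plasma proteins, cholesterol, bile acids and the enzymes that clear drugs. Stellate cells, sinusoidal endothelium and Kupffer cells, the resident macrophages of the liver, contribute the rest together with immune cells in smaller numbers. The measurements were made on whole tissue, so fewer cells of a type and less RNA per cell cannot be told apart in any of the results.

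Messenger RNA was selected by its poly(A) tail, and between 7696730 and 17996732 reads per control mouse and between 7067386 and 11997763 per ponatinib mouse were counted on genes. Reads outside annotated genes, which overlap no exon of a gene and include reads in introns, took 7.97% ± 0.42 (SD, n = 8 mice) of uniquely aligned reads in control mice and 11.0% ± 1.99 (SD, n = 8 mice) with ponatinib. Every ponatinib mouse lay above every control mouse, a difference of 3.08 percentage points (p = 0.0001554 by a two-sided exact permutation test, which cannot go lower with 8 mice against 8). Reads that aligned to several places, which were counted on no gene, rose from a mean of 32.4% to 35.9% of reads (exact permutation test, p = 0.0003108). Fold changes also followed the length of the gene. Among the 14043 genes with a known exon length, divided into 5 equal bins by length, the median log2 fold change was 0.25 in the bin of the shortest genes (up to 2088 bases) and 0.056, -0.041, -0.097 and -0.12 in the bins that follow. Genes higher with ponatinib made up 14.2% of the bin of the shortest genes and 3.88% of that of the longest, and genes lower made up 2.35% and 7.91%. The same order of medians stood in mice given ponatinib 3 mg/kg (0.11 to -0.070) and imatinib (0.25 to -0.15), compared with the same control mice. The part of these read and length differences in the results below was not tested further than by 2 alternatives, a fit with the share of reads outside genes as a covariate and a fit with an offset for gene length. The covariate and the treatment cannot be told apart, since the 2 groups do not overlap in it.

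**Figure D1:**
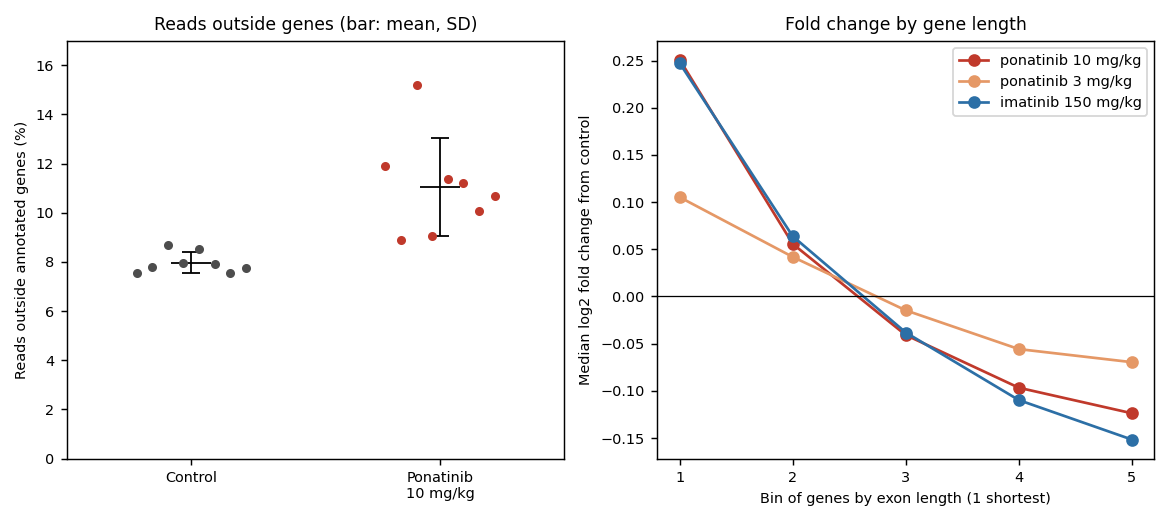
Left, share of uniquely aligned reads outside annotated genes (% on the y axis) in each of 8 control and 8 ponatinib 10 mg/kg mice (points), with the mean and SD (bars): the lowest ponatinib mouse, at 8.89%, lies above the highest control mouse, at 8.67%. Right, median log2 fold change from control (y axis) in each of 5 equal bins of genes by exon length (x axis, 1 is the shortest) in 3 treated groups (lines), which falls from the shortest to the longest genes in all 3.

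Between ponatinib 10 mg/kg and control mice 1762 of 14090 genes tested differed in level, 983 higher and 779 lower with ponatinib. A gene was called at an adjusted p-value under 0.05, and every adjusted p-value below comes from edgeR's quasi-likelihood test with Benjamini-Hochberg adjustment over all genes tested. The share of all genes called was 12.5% in either direction, 6.98% higher and 5.53% lower, and these shares are the background for the counts of each gene group. At an unadjusted p under 0.05 it was 25.3%. Most changes were small, with a median log2 fold change of 0.64 among the genes that rose and -0.61 among those that fell, and 105 and 134 of them passed a log2 fold change of 1 in either direction. The median over all genes was -0.0095. Levels are given in CPM, read counts adjusted for library size and composition, as the lowest, the median and the highest of the 8 mice of a group, and log2 fold changes as ponatinib 10 mg/kg minus control with their standard error (SE). With the share of reads outside genes as a covariate 76 genes were called, and with the length offset 1434. Of 51 gene lists with a called gene, the covariate changed the number called in 1 direction or both by more than 1.5 times in 50, and the length offset in 22.

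The 8 ponatinib mice differed in how far they stood from control. Ponatinib mouse 4 lay outside the range of the control mice in 28.2% of the called genes and mouse 2 in 56.1%, where the other 6 mice lay outside it in 75.6% to 84.8%. Without mouse 4 the number of called genes was 2422. Few genes separated the groups in every mouse: 65 genes, 0.461% of those tested, were higher in all ponatinib mice than in all control mice, and 72, or 0.511%, were lower.

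**Figure D2:**
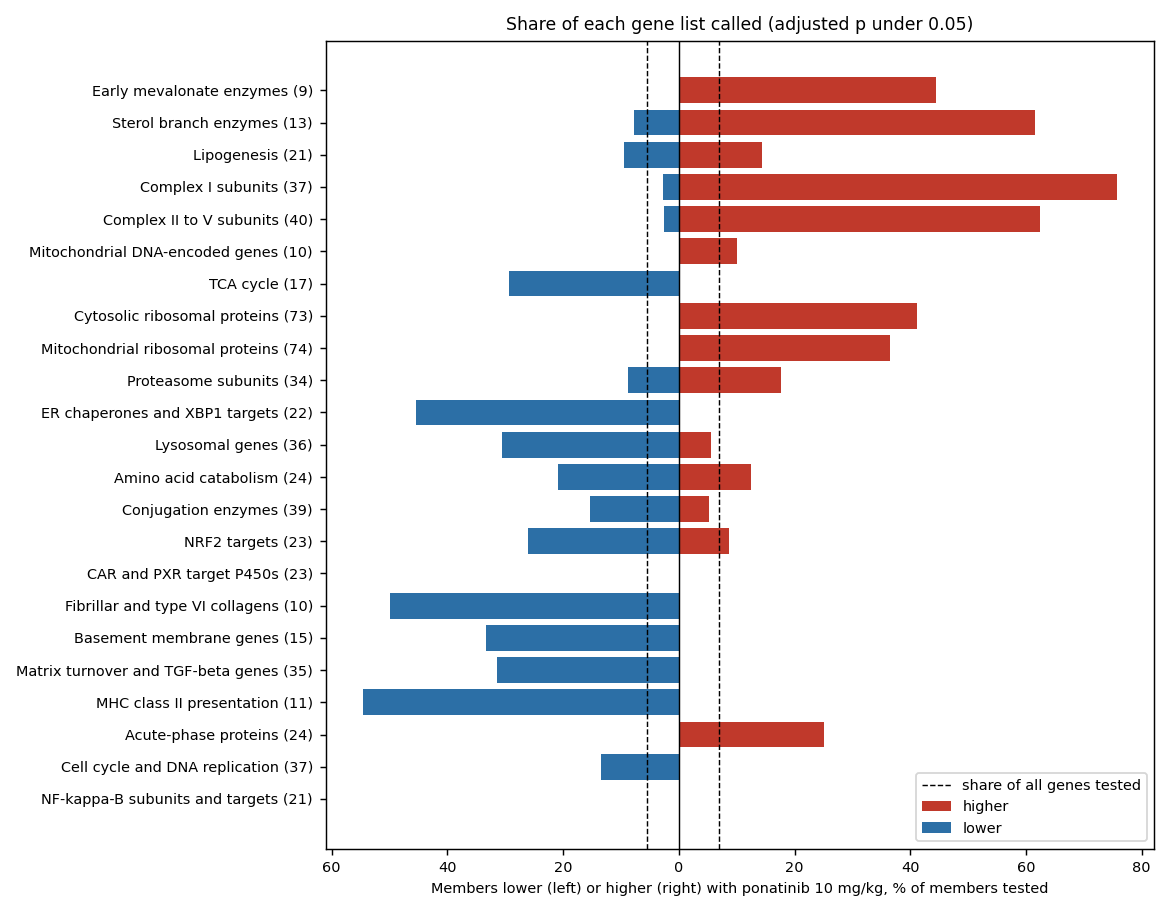
Share of the tested members of 23 gene lists (rows, number tested in brackets) that were called higher (red, to the right) or lower (blue, to the left) with ponatinib 10 mg/kg, in percent (x axis), with the share of all genes as dashed lines. Respiratory chain and sterol enzymes stand to the right and collagens, ER chaperones and MHC class II genes to the left.

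Enzymes of cholesterol synthesis were among the groups with the largest share of higher genes. Cells build cholesterol from acetyl-CoA through mevalonate to squalene, and from squalene through lanosterol to cholesterol, and the transcription factor SREBP2 is the known activator of these genes. Of the 9 enzymes tested from acetyl-CoA to farnesyl and geranylgeranyl diphosphate 4 rose. Of the 13 of the sterol branch 8 rose and 1 fell, and each list had a median log2 fold change of 0.85. The first list ranged in summed level from 371 to 560.1 CPM in control mice (median 446) and from 472 to 1148 CPM with ponatinib (median 780.1). Mvd (mevalonate diphosphate decarboxylase, GRCm38 chromosome 8, 122433601 to 122443422, minus strand) had levels of 11.1, 16.4 and 28.2 CPM in controls and 26.9, 38.4 and 110.1 CPM with ponatinib. The lowest ponatinib mouse, mouse 2, alone reached into the control range, and the log2 fold change was 1.61 ± 0.37 (SE; adjusted p = 0.0025). Fdps, which makes farnesyl diphosphate, stood at 4.43, 10.3 and 14.4 CPM in controls and 16.0, 27.5 and 41.0 CPM with ponatinib. Its groups did not overlap, and it rose by 1.46 ± 0.39 on the log2 scale (SE; adjusted p = 0.00882). Acat2, which condenses acetyl-CoA at the start of the pathway, rose by 0.87 ± 0.19 (SE; adjusted p = 0.00169).

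In the sterol branch, Fdft1 (squalene synthase) measured 41.1, 62.3 and 77.7 CPM in controls and 62.2, 112 and 152 CPM with ponatinib. Ponatinib mouse 4 alone lay within the control range, and the log2 fold change was 0.85 ± 0.18 (SE; adjusted p = 0.000767). Nsdhl, which removes methyl groups from sterols, was 25.6, 37.5 and 46.1 CPM in controls and 51.0, 70.4 and 98.7 CPM with ponatinib, with no overlap between the groups and a log2 fold change of 0.98 ± 0.26 (SE; adjusted p = 0.0084). Ebp, a sterol isomerase, rose by 0.46 ± 0.12. Sqle, the squalene epoxidase, was named after its values were seen, and it rose by 1.35 ± 0.45 (SE; adjusted p = 0.0424). Hmgcs1, which makes HMG-CoA early in the pathway, missed the threshold at an adjusted p of 0.0518. With the covariate for reads outside genes, 0 of the 9 early enzymes were called by edgeR, 6 had an unadjusted p under 0.05, and 1 of the 13 sterol branch enzymes, Fdft1, was called.

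Genes that control this pathway moved less. Among 12 regulators of SREBP2 and of cholesterol uptake, Insig1, which holds SREBP in the ER when sterols are plentiful, rose by 0.69 ± 0.22 on the log2 scale (SE; adjusted p = 0.03). The 12 genes had 0 called by edgeR without ponatinib mouse 3, ponatinib mouse 4 or control mouse 5 (5, 5 and 3 at an unadjusted p under 0.05). With the covariate 0 were called by edgeR (1 at an unadjusted p under 0.05), and with the length offset 1 was called higher. Srebf2, the gene of SREBP2 itself, had medians of 65.2 and 58.3 CPM in control and ponatinib mice (adjusted p = 0.604). The sterol regulatory element, a site that SREBP is known to bind, was searched as TCACNCCAC on both strands from 250 bases before to 50 bases after the start of each gene in RefSeq promoters of GRCm38.p6. It was found in 1 of 17 tested enzymes of the early and sterol branch lists with a promoter in that table. Of these enzymes 9 rose, and 0 of the 9 had it, as did 1.42% of the 10263 tested genes with a promoter. Fdps, Fdft1 and Sqle, which rose, had no promoter in that table and were not searched. The match, shown because it is the only site of this form among the enzymes searched, lies in the Hmgcs1 promoter at chr13:119690209-119690227 on the plus strand. The capitals mark the searched letters.
Hmgcs1: ccgtcTCACCCCACttccc

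Genes of the mitochondrial respiratory chain held the largest share of higher genes among the lists. The chain passes electrons from NADH and succinate through complexes I to IV and drives ATP synthase, complex V, and its subunits are encoded partly in the nucleus and partly in mitochondrial DNA. Of 37 nuclear complex I subunits 28 rose and 1 fell, with a median log2 fold change of 0.65, and of 40 subunits of complexes II to V 25 rose and 1 fell, with a median of 0.69. Uqcr11, a small subunit of complex III (GRCm38 chromosome 10, 80402997 to 80406830, minus strand), measured 39.9, 41.8 and 79.9 CPM in controls and 54.3, 113 and 144 CPM with ponatinib. Its log2 fold change was 1.13 ± 0.17 (SE; adjusted p = 3.06e-05), and ponatinib mouse 4 alone lay within the control range. Atp5e of ATP synthase rose by 1.01 ± 0.15 and Uqcrh of complex III by 0.85 ± 0.13. Ndufb11 of complex I was 48.3, 64.9 and 72.1 CPM in controls and 80.6, 114 and 135 CPM with ponatinib, with no overlap, and rose by 0.79 ± 0.12 (SE; adjusted p = 3.02e-05). The 2 subunits that fell are large ones that carry redox centers, Ndufs1 of complex I (log2 fold change -0.46 ± 0.12) and Sdha of complex II (-0.39 ± 0.11). The median exon length was 1569 bases for the complex I list, within the bin of the shortest genes. With the length offset 22 of the 37 and 21 of the 40 subunits were called higher, and with the covariate 2 and 1 were.

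The mitochondrial DNA-encoded genes did not follow as a group. Of 10 tested, mt-Nd1 rose, at 4099.9, 5696 and 6159.9 CPM in controls and 5500.4, 6689 and 9423 CPM with ponatinib (log2 fold change 0.31 ± 0.11, adjusted p = 0.0427), and the share of all counts from mitochondrial genes was 4.31% in control mice and 4.67% with ponatinib (exact permutation test, p = 0.523). A list of enzymes of the TCA cycle, which supplies the chain with NADH, and of reactions that feed it had 5 of 17 members lower. Sdha, counted above with complex II, is among the 5. Pcx, pyruvate carboxylase, which feeds the cycle, had levels of 655, 765 and 888 CPM in controls and 419, 502 and 754 CPM with ponatinib. Ponatinib mice 2 and 4 lay within the control range and the others below it, and the log2 fold change was -0.51 ± 0.11 (SE; adjusted p = 0.00128). Ogdh, oxoglutarate dehydrogenase, fell by 0.50 ± 0.10 on the log2 scale (adjusted p = 0.000635). With the covariate 0 of the 17 were called by edgeR and 3 had an unadjusted p under 0.05, and with the length offset 4 were called lower.

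Ribosomal protein genes rose in both compartments. Of 73 cytosolic ribosomal proteins 30 rose, with a median log2 fold change of 0.54, and of 74 mitochondrial ribosomal proteins 27 rose, with a median of 0.43. Rpl14 had 50.3, 66.7 and 70.9 CPM in controls and 54.4, 115 and 135 CPM with ponatinib. The groups overlapped through ponatinib mouse 4 alone, and the log2 fold change was 0.78 ± 0.13 (SE; adjusted p = 3.83e-05). Rps20 rose by 0.93 ± 0.16 and Rpl32 by 0.77 ± 0.13, and of the mitochondrial ribosome Mrps16 rose by 0.74 ± 0.18 and Mrpl57 by 0.67 ± 0.16. Many ribosomal protein genes have near-identical processed copies in the genome, and reads that fit several places were not counted, which makes their counts uncertain. Without ponatinib mouse 3 the mitochondrial ribosomal proteins had 17 called higher. With the covariate 4 of the 73 and 0 of the 74 were called by edgeR (unadjusted p under 0.05 in 34 and 23), and with the length offset 23 and 19. Of 36 translation initiation factors 2 rose, among them Eif1 (log2 fold change 0.50 ± 0.15), which helps to choose the start codon, and 3 fell, among them the scaffold Eif4g1 (-0.57 ± 0.10, adjusted p = 8.9e-05). These shares, 5.56% higher and 8.33% lower, lie near those of all genes, 6.98% and 5.53%. Of 34 proteasome subunits 6 rose and 3 fell, with the core subunit Psmb1 higher (0.50 ± 0.10) and the regulatory subunit Psmd1 lower, at medians of 108 CPM in controls and 58.3 CPM with ponatinib (-0.88 ± 0.15, adjusted p = 8.35e-05). Under the covariate fit 0 of the 36 initiation factors were called by edgeR (5 at an unadjusted p under 0.05), and of the 34 proteasome subunits 0 were called higher and 1 lower. Without ponatinib mouse 4 the initiation factors had 5 called higher.

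**Figure D3:**
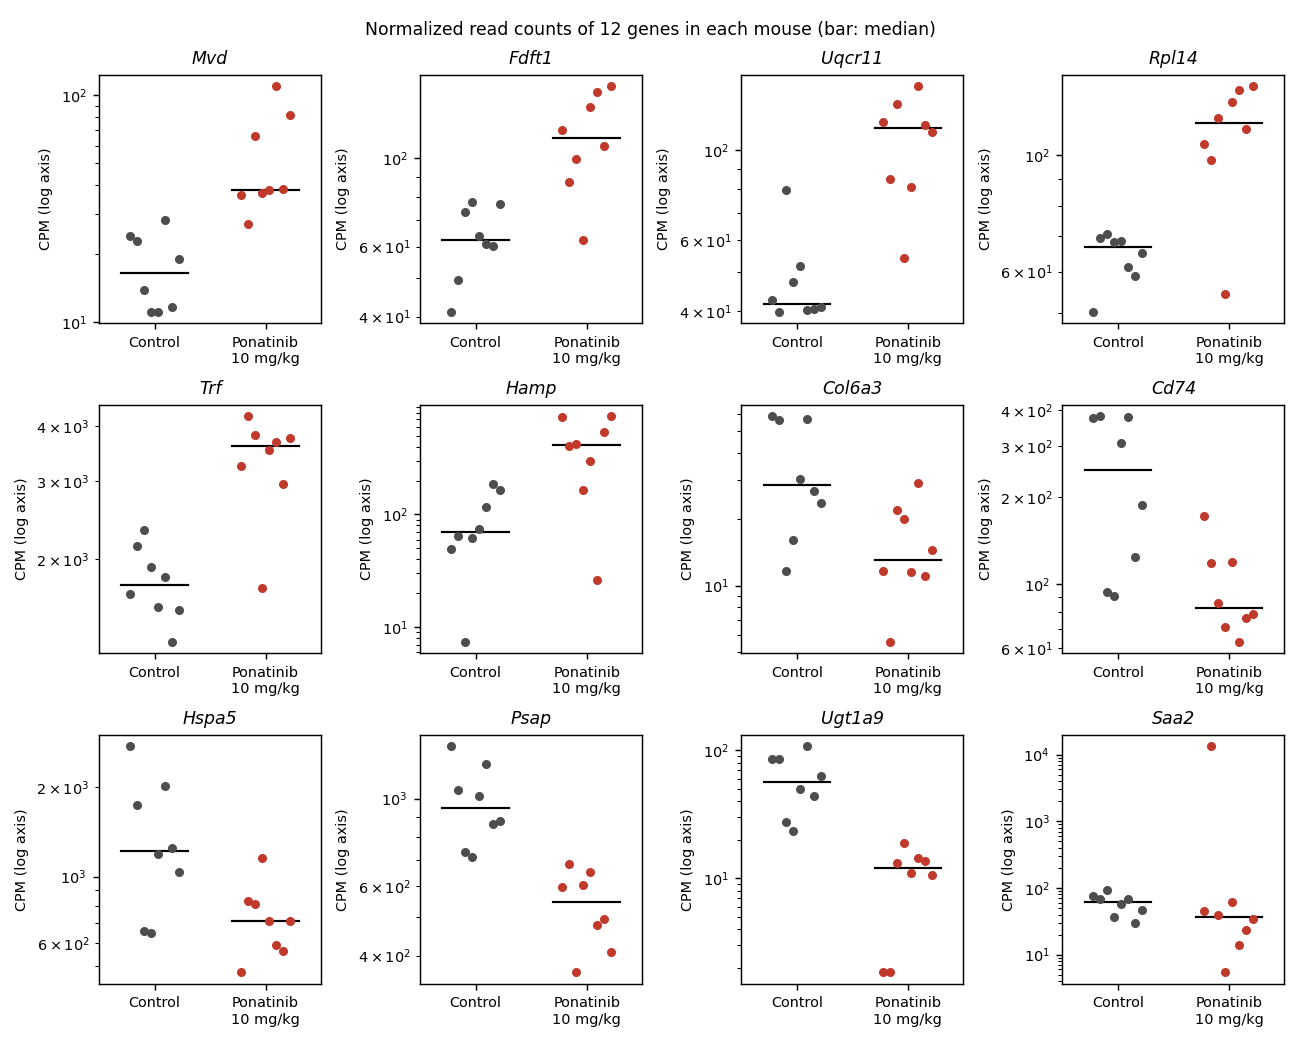
CPM (y axis, log scale) of 12 genes in each of 8 control mice (grey points) and 8 mice given ponatinib 10 mg/kg (red points), with the median as a bar. Psap and Ugt1a9 do not overlap between the groups, and the rise of Saa2 rests on a single ponatinib mouse at 13333 CPM.

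Chaperones of the endoplasmic reticulum fell. The ER folds secreted proteins with the help of chaperones that the transcription factors XBP1 and ATF6 are known to induce. Of 22 such genes 10 fell, with a median log2 fold change of -0.48, beside -0.46 in the mice given 3 mg/kg, in which no gene was called. Hspa5, the BiP chaperone, stood at 649, 1218 and 2739 CPM in controls and 477, 709.7 and 1159 CPM with ponatinib. The control mice spread widely, with the high values in mice 1, 2 and 6, the 2 groups overlapped, and the log2 fold change was -0.95 ± 0.25 (SE; adjusted p = 0.00808). Hsp90b1, the HSP90 of the ER, had a log2 fold change of -0.61 ± 0.15 and Pdia4, a disulfide isomerase, of -0.80 ± 0.19. With the covariate 0 of the 22 were called by edgeR and 8 had an unadjusted p under 0.05. Atf4, the central factor of the integrated stress response, went the other way at 71.4, 95.4 and 102 CPM in controls and 104, 125 and 180.3 CPM with ponatinib, with no overlap (log2 fold change 0.50 ± 0.11, adjusted p = 0.000748). Among 21 listed ATF4 genes it was the single one called.

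Lysosomal genes fell in 11 of 36 and rose in 2. Psap, which encodes the saposins that activate lipid hydrolases (GRCm38 chromosome 10, 60277627 to 60302597, plus strand), had 710.3, 946 and 1356 CPM in controls and 363, 546 and 682 CPM with ponatinib. The groups did not overlap, and the log2 fold change was -0.87 ± 0.14 (SE; adjusted p = 3.96e-05). Gpnmb, a membrane glycoprotein of lipid-laden macrophages (GRCm38 chromosome 6, 49036546 to 49070929, plus strand), had the largest fall among the genes named here, with 8.75, 91.3 and 258 CPM in controls and 0.582, 3.88 and 12.9 CPM with ponatinib. Control mice 1, 2, 5 and 6 held the highest values, the groups overlapped, and the log2 fold change was -4.40 ± 0.84 (SE; adjusted p = 0.0004). Atp6v1a, of the proton pump, fell by 0.66 ± 0.14 on the log2 scale, and Ctsa, a protective carboxypeptidase, rose by 0.34 ± 0.09. Without ponatinib mouse 3 the list had 7 genes called lower. Under the covariate fit 0 of the 36 were called by edgeR and 10 had an unadjusted p under 0.05.

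Genes of the extracellular matrix were lower. Collagens are made in liver mainly by stellate cells and fibroblasts, and they accumulate in fibrosis. Of 10 fibrillar and type VI collagens 5 fell, with a median log2 fold change of -0.96 (-0.95 at 3 mg/kg and -1.34 with imatinib, against the same control mice), of 15 basement membrane genes 5 fell, and of 35 genes of matrix turnover and TGF-beta signaling 11 fell. Col6a3 measured 11.7, 28.6 and 58.5 CPM in controls and 5.55, 13.1 and 29.1 CPM with ponatinib, with the highest values in control mice 1, 2 and 6, overlapping groups and a log2 fold change of -1.16 ± 0.35 (SE; adjusted p = 0.0228). Col4a2 of the basement membrane had a log2 fold change of -1.11 ± 0.29 and the proteoglycan gene Hspg2 of -0.89 ± 0.21. Tgfbr2, the TGF-beta receptor, stood at 17.2, 42.8 and 54.7 CPM in controls and 14.1, 22.7 and 29.1 CPM with ponatinib. The groups overlapped in part and the log2 fold change was -0.91 ± 0.19 (SE; adjusted p = 0.000834). Of the turnover genes 7 were called lower without ponatinib mouse 3 and 6 without control mouse 5. With the length offset 6 of the 35 turnover genes were called, and with the covariate 1 of the 10 collagens, 0 of the 15 basement membrane genes (edgeR; unadjusted p under 0.05 in 4) and 1 of the 35 turnover genes.

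Markers of the cells that make matrix were called in part. Of 16 markers of activated stellate cells and fibroblasts 5 fell, among them Lum (-1.29 ± 0.30, adjusted p = 0.00214) and Dpt (-1.62 ± 0.41, adjusted p = 0.00444), 2 matrix proteins of fibroblasts, and the summed level of the list ranged from 188 to 899.6 CPM in control mice and from 56.5 to 268 CPM with ponatinib. The other 3 that fell are collagens of the list above, and with the covariate 2 of the 16 were called lower. Acta2, the defining marker of activated stellate cells, was low in both groups, with medians of 5.66 and 3.59 CPM (adjusted p = 0.803). Of 16 markers of quiescent stellate cells Ecm1 was called and rose by 0.56 ± 0.18, and Lrat, which stores vitamin A, and Reln had adjusted p-values of 0.141 and 0.564. Of 22 markers of sinusoidal endothelium Maf fell by 0.43 ± 0.14 on the log2 scale, and Stab2, the scavenger receptor that defines these cells, had medians of 67.8 and 54.8 CPM (adjusted p = 0.194). The log2 fold change was below 0 in 21 of the 22 and above 0 in 1, where 49.1% of all genes lay above 0. The median of these 22 markers was -0.40, beside -0.45 at 3 mg/kg and 0.11 with imatinib, against the same control mice. Without ponatinib mouse 2 the quiescent stellate markers had 3 called higher and the sinusoidal markers 0 called by edgeR (4 at an unadjusted p under 0.05), and with the covariate both lists had 0 called by edgeR (1 and 6). Both lists also had 0 called by edgeR without ponatinib mouse 3 (5 and 8) and without control mouse 5 (5 and 6). With the length offset 0 quiescent markers (5) and 1 sinusoidal marker were called by edgeR. Without ponatinib mouse 4 the quiescent list had 3 called higher and 1 lower, and the sinusoidal list 3 lower. The part of a changed number of these cells was not tested.

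**Figure D4:**
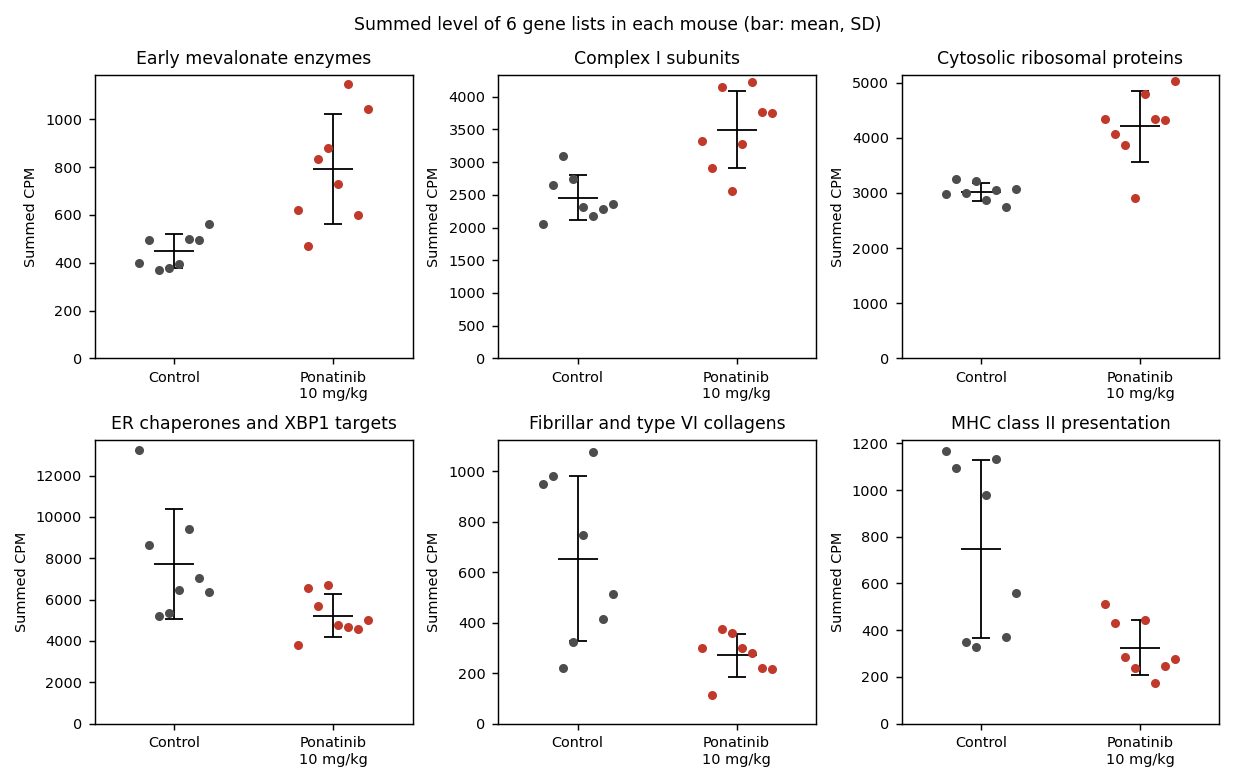
Summed CPM (y axis) of 6 gene lists in each of 8 control and 8 ponatinib 10 mg/kg mice (points), with the mean and SD (bars). The groups overlap in each of the 6 lists, and the collagen sum reaches 376 CPM in ponatinib mice and 1076 CPM in control mice.

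Genes of antigen presentation by MHC class II fell in 6 of 11, with a median log2 fold change of -0.96, beside -1.01 at 3 mg/kg and -1.41 with imatinib. Ciita, the master regulator of these genes, was 1.61, 6.25 and 19.3 CPM in controls and 0, 1.30 and 4.81 CPM with ponatinib. Its groups overlapped and it fell by 2.25 ± 0.51 on the log2 scale (SE; adjusted p = 0.00181). Cd74, the invariant chain, measured 91.2, 248 and 380.4 CPM in controls and 62.9, 82.6 and 172 CPM with ponatinib, with the highest values in control mice 1, 2, 5 and 6, overlapping groups and a log2 fold change of -1.30 ± 0.34 (SE; adjusted p = 0.00729). H2-Ab1, a chain of the molecule itself, fell by 1.36 ± 0.36 on the log2 scale. With the length offset 6 of the 11 were called, and with the covariate 0 by edgeR and 5 had an unadjusted p under 0.05. These genes mark dendritic cells, B cells and recruited macrophages. Of 8 dendritic cell markers 0 were called by edgeR or DESeq2 and 0 had an unadjusted p under 0.05.

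Macrophage markers were divided. Of 18 Kupffer cell markers Clec4f, the lectin that defines these cells, had 102, 189 and 266 CPM in controls and 148, 235 and 591 CPM with ponatinib. The groups overlapped in most mice, and it rose by 0.61 ± 0.20 on the log2 scale (adjusted p = 0.0375). The scavenger receptor gene Marco rose by 2.33 ± 0.80 (adjusted p = 0.0486). Cd68, a lysosomal protein of all macrophages, fell by 0.80 ± 0.27 on the log2 scale (adjusted p = 0.0418). Without control mouse 5 Clec4f, Marco and Cd68 were not called. Without ponatinib mouse 2 Marco was not called, and without ponatinib mouse 3 or mouse 4 Cd68 was not. With the length offset neither Clec4f nor Marco was called. Timd4 and Vsig4, other resident markers, had adjusted p-values of 0.301 and 0.551. Of 20 markers of recruited monocytes and macrophages 2 fell, 1 of them Gpnmb. Mmp12, a macrophage elastase, had 4.38, 38.4 and 99.1 CPM in controls and 0.146, 7.27 and 15.2 CPM with ponatinib. Its highest values stood in the same 4 control mice as those of Gpnmb, the groups overlapped, and it fell by 2.63 ± 0.79 on the log2 scale (adjusted p = 0.0226). With the covariate 0 genes of these 2 macrophage lists were called by edgeR (unadjusted p under 0.05 in 3 and 2), and without ponatinib mouse 2 the recruited markers had 5 called lower. T and NK cell markers (17) and neutrophil markers (4) had 0 called by edgeR or DESeq2 and 0 with an unadjusted p under 0.05.

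Immunoglobulin genes rose. Plasma cells secrete antibodies, and of 8 plasma cell markers 4 rose. Igkc, the kappa constant region, was 5.29, 6.91 and 9.98 CPM in controls and 2.31, 26.2 and 87.7 CPM with ponatinib, with mouse 4 below and mouse 6 within the control range. The log2 fold change was 2.20 ± 0.46 (SE; adjusted p = 0.00113). Jchain, which joins IgA and IgM, was 0, 1.23 and 2.46 CPM in controls and 2.58, 4.20 and 12.7 CPM with ponatinib, without overlap (2.02 ± 0.59, adjusted p = 0.015). Ighg2b and Igha rose by 3.50 ± 1.02 and 2.18 ± 0.73, also from levels of a few CPM. Without ponatinib mouse 2 the 8 markers had 2 called higher and 1 lower, and with the covariate 1 was called higher. Red cell and platelet genes rose in 4 of 9, with hemoglobin Hbb-bs at 58.3, 108 and 175 CPM in controls and 72.9, 189.6 and 509.9 CPM with ponatinib (log2 fold change 1.15 ± 0.36, adjusted p = 0.0262). The 2 alpha-globin genes are near-identical and their counts uncertain, Alas2, a defining erythroid gene, had medians of 26.9 and 16.2 CPM (adjusted p = 0.565), and 1 of the 9 was called with the length offset, 1 without ponatinib mouse 3, and 0 with the covariate (edgeR, 2 at an unadjusted p under 0.05). Blood left in the tissue was not measured otherwise, and its part was not tested.

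Hepatocyte markers were present in all mice, with Alb, albumin, at 60972, 87174 and 112260.0 CPM in controls and 43898, 95205 and 113260.0 CPM with ponatinib (adjusted p = 0.686). Of 12 listed genes of the pancreas 8 had 0 counts in all 16 mice. Several abundant secreted proteins rose. Trf, transferrin, the carrier of iron in plasma (GRCm38 chromosome 9, 103204001 to 103230444, minus strand), measured 1297, 1745 and 2331 CPM in controls and 1719.7, 3613 and 4221 CPM with ponatinib. Ponatinib mouse 4 alone lay within the control range, and the log2 fold change was 0.92 ± 0.13 (SE; adjusted p = 1.69e-05). Ttr, the carrier of thyroxine and retinol-binding protein, rose by 0.73 ± 0.14, its partner Rbp4 by 0.57 ± 0.13, and Ambp, a protease inhibitor precursor, by 0.54 ± 0.13. Fabp1, the fatty acid carrier of the hepatocyte, had 1207, 1662 and 3032 CPM in controls and 1576, 4057 and 5057 CPM with ponatinib. Mice 2 and 4 lay within the control range, and it rose by 1.00 ± 0.24 on the log2 scale (adjusted p = 0.00336). Pigr, which carries IgA into bile, was lower, with a log2 fold change of -0.71 ± 0.14, as was Mug1, a plasma protease inhibitor, with -0.92 ± 0.23 (adjusted p = 0.000385 and 0.00581).

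Hepcidin, the hormone that lowers iron export from cells, rose. Hamp (GRCm38 chromosome 7, 30942368 to 30944032, minus strand) was 7.38, 69.4 and 187 CPM in controls and 26.3, 412 and 745 CPM with ponatinib. Ponatinib mice 4 and 6 lay within the control range, and the log2 fold change was 2.20 ± 0.60 (SE; adjusted p = 0.0118). The neighboring copy Hamp2 rose by 1.59 ± 0.42, and since the genes are similar their reads may be divided uncertainly. With Trf these were the 3 of 18 iron genes that rose, and 1 of them, Trf, was called with the covariate. Complement genes rose in 5 of 27 and fell in 1. C8g, a subunit of the membrane attack complex, rose by 0.60 ± 0.13, Vtn, vitronectin, by 0.51 ± 0.12 and Mbl2, a lectin that recognizes microbial sugars, by 0.46 ± 0.11. Masp1, a protease that starts the lectin pathway, had 28.7, 53.9 and 110.1 CPM in controls and 11.5, 19.0 and 56.7 CPM with ponatinib. Mice 2 and 4 lay within the control range, and it fell by 1.31 ± 0.28 on the log2 scale (adjusted p = 0.00128). The list depends on ponatinib mouse 2. Its summed level was 36986 CPM in that mouse, above the control range of 17801 to 24964 CPM, while the ponatinib median of 16653 CPM lay below that range. Without this mouse 3 of the 27 were called higher and 4 lower, and 3 were called higher without ponatinib mouse 3 or without control mouse 5. Under the covariate fit 0 were called by edgeR (6 at an unadjusted p under 0.05), and with the length offset 3 were higher and 1 lower.

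Calls of acute-phase genes by edgeR depended on a single mouse. Of 24 such genes, which the liver secretes in inflammation, 6 were called higher, and without ponatinib mouse 2 these calls were lost and 3 genes were called lower. With the covariate, as with the length offset, 3 were called higher. DESeq2 called 4 higher and 2 lower. Saa1, serum amyloid A, was 59.1, 102 and 207 CPM in controls and 9.91, 49.7 and 11846 CPM with ponatinib, and the highest value belonged to mouse 2. The median was lower with ponatinib than in control mice, and the fitted log2 fold change of 3.77 ± 1.05 (SE; adjusted p = 0.013) became -1.17 without this mouse. Saa2 behaved the same way, at 13333 CPM in mouse 2 against a ponatinib median of 36.8 CPM, as did Orm2, orosomucoid, at 1469 CPM against 27.8 CPM. Reads shared by the near-identical Saa1 and Saa2 were not counted. The chemokine gene Cxcl13 (143 CPM) and the neutrophil protease gene Prtn3 (146 CPM) were likewise high in mouse 2, against ponatinib medians of 1.92 and 0.929 CPM. Mt1, metallothionein, was 1180 CPM in the same mouse, with a ponatinib median of 225 and a control median of 74.2 CPM (log2 fold change 1.94 ± 0.58, adjusted p = 0.0207). Without mouse 2 Mt1 was not called, and 0 of 8 metallothionein and zinc transporter genes were called by edgeR (4 at an unadjusted p under 0.05). Prtn3, Cxcl13, Saa1 and Saa2 are among the 12 genes with the largest fold change, so that the order of the strongest rises depends on this mouse.

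A single control mouse shaped the interferon genes. Of 34 interferon-stimulated genes 3 fell and 1 rose. Iigp1, an interferon-induced GTPase, was 244, 385 and 2808 CPM in controls and 234, 290.1 and 389.8 CPM with ponatinib, and control mouse 5 held the high value. The same mouse was highest for Irgm2 (433 CPM), Tgtp1 (81.6 CPM) and BC023105 (370 CPM), of which Irgm2 and Tgtp1 encode further interferon-induced GTPases. The groups overlapped for all 4 genes, and without this mouse none of the 3 falls was called. Cxcl10, an interferon-induced chemokine and 1 of the 3, fell by 1.28 ± 0.40 on the log2 scale in the full comparison (adjusted p = 0.0241) and Stat2 rose by 0.52 ± 0.13. With the covariate 0 of the 34 were called by edgeR and 8 had an unadjusted p under 0.05.

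Drug metabolism genes changed in part. Conjugation enzymes attach sugar, sulfate or glutathione to drugs before export, and 6 of 39 fell and 2 rose. Ugt1a9 (GRCm38 chromosome 1, 88070800 to 88218997, plus strand) was 23.5, 56.3 and 107 CPM in controls and 1.85, 12.1 and 18.7 CPM with ponatinib. The groups did not overlap, the log2 fold change was -2.52 ± 0.41 (SE; adjusted p = 7.35e-05), and it was among the genes called with the covariate. Ugt1a1, which conjugates bilirubin, fell by 0.97 ± 0.22 on the log2 scale. Genes of the Ugt1a cluster share exons, and reads in shared exons were not counted, so their values rest on the unshared part. The sulfotransferase Sult1a1 rose by 0.54 ± 0.12 (adjusted p = 0.00178). Of 19 transporters 4 fell and 1 rose, among them the bile phospholipid pump Abcb4 (-0.55 ± 0.12) and the efflux pumps Abcc3 (-0.65 ± 0.14) and Abcc4 (-1.91 ± 0.49). Of 23 genes of the NRF2 antioxidant response 6 fell, such as Txnrd1 (-0.71 ± 0.15, adjusted p = 0.00122) and Srxn1 (-1.18 ± 0.37), and 2 rose, such as Txn1 (0.47 ± 0.12). Without ponatinib mouse 2 the NRF2 list had 3 called lower, and without mouse 4 the transporters had 7. With the covariate 1 conjugation enzyme and 0 of the transporters and NRF2 genes were called by edgeR, the latter with 4 and 7 at an unadjusted p under 0.05.

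The cytochrome P450 targets of the drug receptors CAR and PXR had 0 of 23 called by edgeR and 1 by DESeq2, while 10 had an unadjusted p under 0.05. Without ponatinib mouse 2 edgeR called 2 higher and 2 lower. Cyp3a11, the main PXR target, was 1310.3, 1508 and 1848 CPM in controls and 741, 1380.5 and 1653 CPM with ponatinib (log2 fold change -0.28 ± 0.13, adjusted p = 0.156). Cyp2b10, the main CAR target, was low in both, with medians of 4.28 and 6.63 CPM. Of 5 AhR targets 0 were called by edgeR or DESeq2 and 0 had an unadjusted p under 0.05, with Cyp1a1 at 0, 0.959 and 1.68 CPM in controls and 0.434, 1.11 and 1.99 CPM with ponatinib. Lipid droplet proteins (10), growth hormone and IGF genes (16), clock genes (19) and NF-kappa-B genes (21) had 0 called by edgeR, with 2, 1, 1 and 4 at an unadjusted p under 0.05, and DESeq2 called 1 of the NF-kappa-B genes and none of the others.

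Genes of lipid and amino acid metabolism were called in both directions. Scd1, the desaturase that makes oleate, was 19518, 23611 and 33525 CPM in controls and 11359, 13545 and 28745 CPM with ponatinib. Ponatinib mouse 4 alone lay within the control range, and the log2 fold change was -0.67 ± 0.20 (SE; adjusted p = 0.0195). Pnpla3, a lipase of lipid droplets that SREBP1c is known to induce, rose by 1.95 ± 0.51 and Acaca, the acetyl-CoA carboxylase that starts fatty acid synthesis, by 0.66 ± 0.21, so that 3 of 21 lipogenic genes rose and 2 fell. Without ponatinib mouse 3 the lipogenic list had 0 called higher by edgeR (8 of the list at an unadjusted p under 0.05), and 1 without control mouse 5. Among 21 genes of bile acid synthesis and sterol export 5 fell and 1 rose. Abcg1, which exports cholesterol from cells, was 26.4, 50.6 and 74.0 CPM in controls and 12.0, 19.2 and 27.3 CPM with ponatinib, with mouse 5 alone within the control range and a log2 fold change of -1.33 ± 0.24 (SE; adjusted p = 0.000236). Abcg8, of the biliary sterol pump, had a log2 fold change of -0.66 ± 0.15 and Acox2, an enzyme of bile acid side chain oxidation, of -0.76 ± 0.16. Cyp7a1, the rate-limiting enzyme of bile acid synthesis, spread widely and was not called (52.4, 120.3 and 189 CPM in controls and 8.16, 85.7 and 197 CPM with ponatinib, adjusted p = 0.682). Of 24 enzymes of amino acid catabolism 3 rose and 5 fell, and without ponatinib mouse 3 3 were called lower. Cps1, the entry of the urea cycle, fell by 0.86 ± 0.23 on the log2 scale (adjusted p = 0.0109). Oat, ornithine aminotransferase, and Tdo2, which degrades tryptophan, had log2 fold changes of -0.73 ± 0.21 and -0.55 ± 0.13, while Asl, a later urea cycle enzyme, rose by 0.51 ± 0.16. Under the covariate fit 0 of the 21 lipogenic, 21 bile acid and 24 amino acid genes were called by edgeR, with 3, 4 and 5 at an unadjusted p under 0.05.

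Of 32 kinases that ponatinib is known to inhibit 1 was called, Fgfr3, a receptor of fibroblast growth factors. It had 44.3, 63.4 and 80.4 CPM in controls and 48.8, 102 and 156 CPM with ponatinib. Ponatinib mouse 2 alone lay within the control range, and the log2 fold change was 0.68 ± 0.15 (SE; adjusted p = 0.00102). Kdr, the main VEGF receptor, had medians of 35.4 and 29.1 CPM (adjusted p = 0.186), and Pdgfrb, Csf1r and Kit had adjusted p-values of 0.232, 0.519 and 0.222. Of 14 ligands of these receptors 2 rose, both of the VEGF family. Vegfa measured 155, 190.3 and 259.7 CPM in controls and 247, 341 and 451 CPM with ponatinib, with mouse 2 alone within the control range and a log2 fold change of 0.85 ± 0.14 (SE; adjusted p = 5.96e-05), and Vegfb rose by 0.74 ± 0.22. Of 18 feedback genes that receptor signaling induces 2 fell. Jun, a part of the AP-1 factor, had 13.7, 31.5 and 47.7 CPM in controls and 2.44, 9.01 and 22.5 CPM with ponatinib, with mouse 2 alone within the control range and a log2 fold change of -1.67 ± 0.37 (SE; adjusted p = 0.00167). Dusp6, the phosphatase of ERK, fell by 0.66 ± 0.21 on the log2 scale. Of 37 genes of the cell cycle and DNA replication 5 fell, with a median log2 fold change of -1.19, from low levels: Top2a had medians of 4.51 and 1.30 CPM (-1.90 ± 0.61, adjusted p = 0.0291) and Mcm3 of 9.71 and 5.03 CPM. Of the 37 cell cycle genes 2 were called lower without control mouse 5. With the covariate 0 genes of these 4 lists were called by edgeR, with 3, 3, 5 and 7 at an unadjusted p under 0.05.

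Of the genes with the largest fold changes, Peg3, an imprinted zinc finger gene (GRCm38 chromosome 7, 6703892 to 6730431, minus strand), had 1.09, 5.75 and 6.70 CPM in controls and 10.8, 22.3 and 39.7 CPM with ponatinib. The groups did not overlap, the log2 fold change was 2.17 ± 0.32 (SE; adjusted p = 3.02e-05), and with the covariate it had the lowest adjusted p of all genes. Among the largest falls, Myo5a, a myosin motor, was 1.91, 5.40 and 10.0 CPM in controls and 0, 0.740 and 1.90 CPM with ponatinib (-2.80 ± 0.81, adjusted p = 0.0152). Pcdh12 and Bcl6b, both known from endothelium, had log2 fold changes of -1.94 ± 0.51 and -2.09 ± 0.59, Ltbp2, a matrix protein, of -2.12 ± 0.73 and Emp1, an epithelial membrane protein, of -1.92 ± 0.50, each from control medians between 4.27 and 8.63 CPM. Selenot-ps, a processed copy of a selenoprotein gene, fell by 2.24 ± 0.71 on the log2 scale, and reads that fit its parent as well were not counted. Malat1, Neat1, mt-Rnr2 and Lars2 were named after their values were seen. Malat1, a long noncoding RNA of the nucleus, was 102, 122 and 155 CPM in controls and 141, 203 and 853 CPM with ponatinib, with mouse 3, the mouse with the largest share of reads outside genes (15.2%), at 853 CPM. Its log2 fold change of 1.18 ± 0.31 (SE; adjusted p = 0.00826) became -0.18 with the covariate. Neat1, another long noncoding RNA of the nucleus, rose by 0.69 ± 0.21 and the mitochondrial ribosomal RNA gene mt-Rnr2 by 1.04 ± 0.17. Counts on Lars2, the gene of the mitochondrial leucyl-tRNA synthetase, rose by 1.17 ± 0.21, from a mean of 746 CPM in controls to 1674 CPM. The libraries did not keep strand, and whether these reads come from the transcript of the synthetase was not tested.

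The changes at 10 mg/kg were set beside those at the lower dose and with imatinib. Each of these groups was compared with the same 8 control mice, so the values are set side by side and not correlated. At 3 mg/kg 0 of the 14090 genes were called against control by edgeR, where 1335, or 9.47%, had an unadjusted p under 0.05. The 983 genes that rose at 10 mg/kg had a median log2 fold change of 0.64 there, 0.27 at 3 mg/kg and 0.50 with imatinib, and the 779 that fell had -0.61, -0.26 and -0.42. A direct test of 10 against 3 mg/kg, which uses the same ponatinib mice but no control mice, called 167 genes (1.19% of all genes), 115 higher at the high dose (0.816%) and 52 lower (0.369%). Uqcr11 had a mean of 105 CPM at 10 mg/kg and of 60.7 CPM at 3 mg/kg, a log2 difference of 0.79 ± 0.17 (SE; adjusted p = 0.014). Trf and Peg3 were higher at 10 than at 3 mg/kg by 0.61 ± 0.13 and 1.44 ± 0.31, and Pigr and Abcg8 were lower, with log2 differences of -0.64 ± 0.14 and -0.56 ± 0.15. Mapk8ip3, a scaffold of JNK signaling named after its values were seen, was at 74.0 ± 19.7 CPM (SD, n = 8) against 40.0 ± 6.89 CPM (log2 difference 0.88 ± 0.16, adjusted p = 0.00318). With imatinib the log2 fold changes from control of these genes were 0.91 for Uqcr11, 0.33 for Trf, 2.07 for Peg3, -0.60 for Pigr, -0.18 for Abcg8 and 0.45 for Mapk8ip3. Under the covariate fit 0 genes differed between the doses by edgeR, with 932 at an unadjusted p under 0.05.

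**Figure D5:**
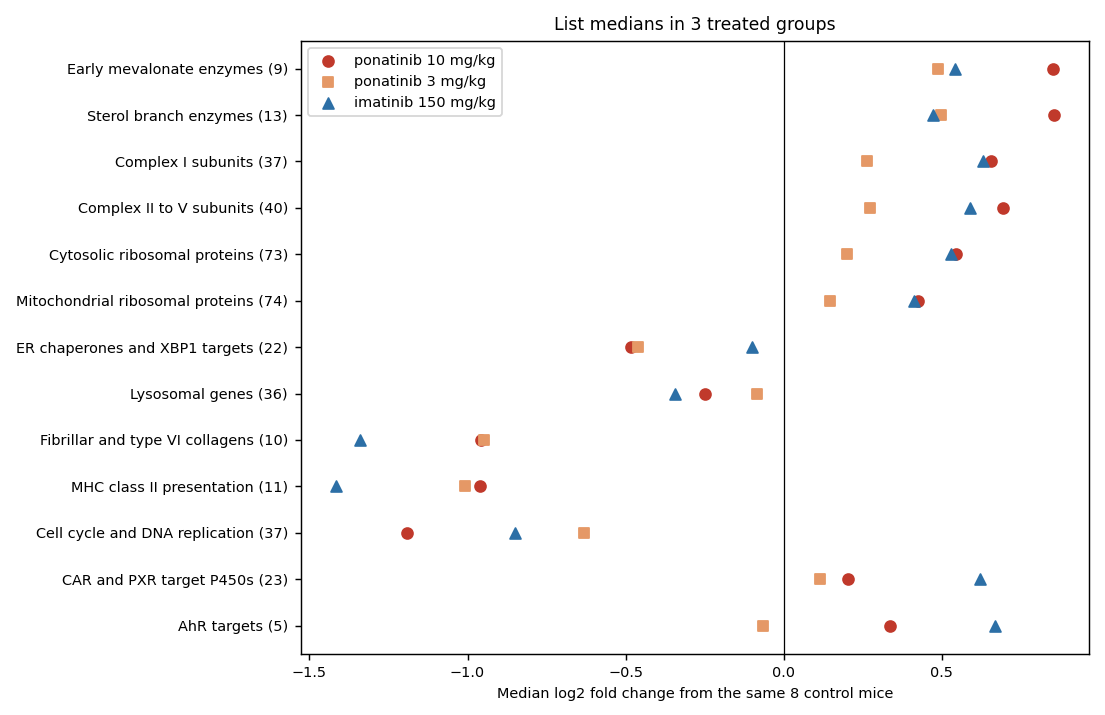
Median log2 fold change from the same 8 control mice (x axis) of 13 gene lists (rows, number of genes tested in brackets) with ponatinib 10 mg/kg (red circles), ponatinib 3 mg/kg (orange squares) and imatinib 150 mg/kg (blue triangles). The list of AhR targets is at -0.07 with ponatinib 3 mg/kg and above 0 in the other groups, and each of the other 12 lists lies on 1 side of 0 in all 3 groups.

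Ponatinib 10 mg/kg and imatinib differed in 120 genes (0.852% of all genes), 31 higher with ponatinib (0.22% of all genes) and 89 lower (0.632%). Of the lists, PPAR-alpha targets, which serve fatty acid oxidation and ketone synthesis, had 9 of 30 genes lower than with imatinib. Conjugation enzymes had 6 of 39, CAR and PXR target P450s 4 of 23 and AhR targets 2 of 5 lower. Against control, the PPAR-alpha list had a median log2 fold change of 0.05 with ponatinib and 0.44 with imatinib. Cyp1a2, an AhR target, was a mean of 425 CPM with ponatinib and 3347 CPM with imatinib, with a log2 difference of -2.98 ± 0.18 (SE; adjusted p = 8.6e-19), and its control mean was 521 CPM. Cyp1a1 was 1.14 and 29.6 CPM in the same way, and Cyp3a11 was 1268 and 2283 CPM (log2 difference -0.85 ± 0.13, adjusted p = 4.23e-05). These genes rose with imatinib against control and were not called with ponatinib. For Ugt1a9 the value with ponatinib was the one that differed from control, at a mean of 10.7 CPM with ponatinib against 59.6 CPM with imatinib and 60.7 CPM in control mice (log2 difference from imatinib -2.49 ± 0.41, adjusted p = 0.000329). Abcc3, Abcb4, Tdo2 and Ehhadh, a peroxisomal enzyme of fatty acid oxidation, were lower with ponatinib than with imatinib, with log2 differences of -0.87 ± 0.14, -0.54 ± 0.12, -0.51 ± 0.13 and -0.89 ± 0.18. Trf was higher with ponatinib than with imatinib by 0.58 ± 0.13 (adjusted p = 0.00877). The doses and daily gavages of the 2 drugs differ, so these values compare the treatments as given. With the covariate 104 genes differed between ponatinib 10 mg/kg and imatinib.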

How the data were processed

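Liver RNA of 56 mice in 7 groups of 8 was sequenced as poly(A)-selected libraries from a kit that does not keep strand, so overlapping genes on opposite strands cannot be told apart. The authors aligned reads to GRCm38 with TopHat2 2.0.14 and Bowtie2 2.1.0 and deposited, per mouse, raw read counts on 45513 Ensembl gene identifiers from HTSeq 0.6.1p1 (tools per the submitters' processing notes, which also name SAMtools 0.1.18). Reads fitting several places or genes were not counted. GENCODE vM21 gave a name to 44671 identifiers. Rows that name no gene were kept out of library sizes and tests. Counts were normalized by TMM, filtered by edgeR's filterByExpr and fitted by edgeR 4.0.16 (R 4.3.3) in a robust quasi-likelihood model of 48 mice in 6 groups, without the L-NAME group, so that groups share 1 estimate of the spread. Genes were called at a Benjamini-Hochberg adjusted p under 0.05. The labels give no dates or batches. The edgeR p-values weigh a difference between groups against the spread between mice, estimated over the 48 mice of the fit. Alternatives used limma 3.58.1 and DESeq2 1.42.0, other normalization, filters and sample sets, 1 mouse left out at a time, the covariate and the length offset. The fit was tested on simulated data. Shares of reads were compared by exact permutation over the 12870 splits of 8 against 8.

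The gene lists (69 lists, 1492 symbols, 4 without a match) and the members were chosen with earlier results of these data known. Named genes were called genes other than predicted genes, immunoglobulin variable, diversity and joining segments and panel genes: the 12 higher and 12 lower with the largest fold change at a mean of at least 5 CPM, the 8 and 8 with the largest difference in mean CPM, and in each list the 3 with the lowest p in each direction, with uncalled members that define a list. Genes under this rule that are not named in the text are covered by the counts of their lists, and some genes are not reported here by name.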

Additional observations from a re-analysis of the deposited data

Results flagged for a closer look

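In groups of 8 mice, a level was taken to stand apart from its group when its gap to the nearest other mouse, on the scale of log2 of CPM plus 2, as a share of the whole range, exceeded Dixon's 95% limit for 8 samples. Of 284 sets of 8 values tested, for the genes named here and the measures of the libraries, 34 passed this limit, where chance passes about 1 in 20, and the sets share the same 16 mice.

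Ponatinib mouse 2 held 10 of these values. It was highest for Saa1 (11846 CPM), Saa2 (13333 CPM), Cxcl13 (142.9 CPM), Prtn3 (146.5 CPM) and Ambp (6044 CPM). It was lowest for Alb (43898 CPM), Ecm1 (59.5 CPM), Ehhadh (189.3 CPM), Hamp2 (53.3 CPM) and Reln (10.8 CPM).

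Ponatinib mouse 4, which lay within the control range for most called genes, was lowest for Trf (1719.7 CPM), Rpl14 (54.4 CPM), Rpl32 (52.0 CPM), Eif1 (67.2 CPM), Txn1 (87.6 CPM) and Stab2 (27.0 CPM). It was highest for Scd1 (28745 CPM), Eif4g1 (558.8 CPM) and Txnrd1 (191.8 CPM).

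Ponatinib mouse 3 was highest for Malat1 (853 CPM), Neat1 (1433 CPM) and Dpt (17.7 CPM), and also for the share of counts on mitochondrial genes (7.32%) and the number of genes detected (18282). Ponatinib mouse 6 was lowest for Hamp (26.3 CPM).

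Control mouse 5 was highest for Iigp1 (2808 CPM), Irgm2 (433 CPM), Tgtp1 (81.6 CPM) and BC023105 (370 CPM). Control mouse 3 was highest for Orm2 (129.8 CPM) and Uqcr11 (79.9 CPM) and lowest for Hamp (7.38 CPM). Control mouse 2 was lowest for Peg3 (1.09 CPM), and control mouse 8 was highest for Cxcl13 (2.54 CPM).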

How the results depend on the processing

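Of the processing alternatives, a covariate for the reads outside genes changed the counts most, to 76 genes called between ponatinib 10 mg/kg and control, 55 higher and 21 lower, and 75 of the 76 were also called without it. The covariate and the treatment cannot be told apart. limma voom called 1176 genes lower, voom with sample quality weights called 3666 genes (1795 higher and 1871 lower), and an adjusted p under 0.01 left 804 (492 higher and 312 lower). The 10 and 3 mg/kg doses differed in 0 genes with the covariate (edgeR, 932 at an unadjusted p under 0.05) and in 783 at an unadjusted p under 0.01, the cut-off of the study, and ponatinib and imatinib in 536 at that cut-off. The offset for gene length and the removal of ponatinib mice 2 and 3 together were chosen after seeing the data: the offset gave 1434 calls, of which 1240 were among the 1762. Without 1 mouse at a time the calls numbered 1296 to 2422, with 745 to 1270 higher and 551 to 1152 lower, and the difference in reads outside genes was 2.48 to 3.38 percentage points. Each such removal ended the call of 5 to 18 of the 137 genes named. Log2 fold changes that turned, with their range when 1 mouse was left out, were those of Saa1 (-1.17 to 3.96; -0.24 by voom, -0.33 with quality weights, -1.07 by DESeq2, -1.17 without ponatinib mouse 2 and -1.26 without mice 2 and 3), Saa2 (-0.88 to 5.03; -0.025 with quality weights, -0.80 by DESeq2, -0.88 and -0.94 without the same mice), Orm2 (-0.24 to 2.71; -0.27 by DESeq2, -0.24 and -0.35 without them), BC023105 (-2.52 to 0.27; 0.27 by DESeq2 and 0.27 without control mouse 5) and Malat1 (-0.18 with the covariate). The DESeq2 values and those without the mouse named are close for these genes, and the causes of the other turns were not tested. No paired analysis was possible because the numbers in the labels run on over all libraries of the series and are shared by no 2 mice, and the mouse numbers used here follow the order of the records. Depth limits the genes of a few CPM, for which 0 counts occur in single mice, such as Cxcl13, Prtn3, Myo5a and Ciita.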

Other observations

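Further lists were counted by edgeR at an adjusted p under 0.05. Of 30 PPAR-alpha targets 1 rose and 3 fell, of 20 genes of gluconeogenesis and glucose handling 2 rose and 1 fell, and of 16 pericentral genes 2 fell. Of 15 p53 targets 1 rose, of 11 heat shock genes 1 fell, and of 20 eicosanoid and phospholipase genes 2 rose. Of 8 metallothionein and zinc transporter genes 1 rose and 1 fell, and neither was called without ponatinib mouse 2. Of 16 genes of the urea cycle and periportal hepatocytes 1 rose and 2 fell. Of 11 hepatocyte markers 4 rose and 2 fell. Of 42 genes of coagulation and fibrinolysis 11 rose and 3 fell, and of 39 of atherosclerosis signaling 7 rose and 9 fell. These 2 panels are given as counts here. With the share of reads outside genes as a covariate, the coagulation panel had 2 called higher and 0 lower, the atherosclerosis panel 0 and 1, the hepatocyte markers 1 and 0, the periportal list 0 and 1 and the metallothionein list 1 and 0. The lists of PPAR-alpha, gluconeogenesis, pericentral, p53, heat shock and eicosanoid genes had 0 called by edgeR with the covariate, with 5, 2, 4, 1, 2 and 1 at an unadjusted p under 0.05. Genes lower in the coagulation panel numbered 1 without ponatinib mouse 3, 6 without mouse 4 and 0 without control mouse 5 (edgeR, 21 of the panel at an unadjusted p under 0.05 in either direction), and in the atherosclerosis panel 5 without ponatinib mouse 3.

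Markers of other cells were called rarely. Of 9 B cell markers 1 rose, which was not called without ponatinib mouse 2 or with the covariate. Smooth muscle and mural cells (6 markers), vascular endothelium (11), cholangiocytes (8), mesothelium (5), pancreas (3) and adipocytes (3) had 0 called by edgeR, with 2, 0, 0, 1, 1 and 0 at an unadjusted p under 0.05, and DESeq2 called 1 smooth muscle and 1 pancreas marker. Of 19 genes that differ between the sexes in mouse liver 0 were called by edgeR, 6 had an unadjusted p under 0.05 and 3 were called by DESeq2. Of 8 drug-sensing nuclear receptors and partners 0 were called by edgeR, 3 had an unadjusted p under 0.05 and 1 was called by DESeq2.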
